A study of Mus musculus with 4 samples.

Results

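Foxo1-deficient CD8 T cells were set against Foxo1-deficient CD4 T cells, to see which differences between the lineages existed without Foxo1. The pair consists of 2 of the 4 arrays of the series, 1 for each cell type, chosen by their sample titles. The cells came from spleens and lymph nodes of 6 to 8 week old mice, and their total RNA was hybridised to Affymetrix arrays. The groups are CD4 T cells labelled Foxo1-deficient, CD8 T cells labelled Foxo1-deficient, and wild-type CD4 and CD8 T cells of the same age and tissues, with 1 array in each group. The sources used here state neither how and in which cells Foxo1 was deleted nor the number of animals behind each sample. No value below has a replicate, no test was run, and a difference between the cell types cannot be told apart from one between 2 single preparations. In such bulk RNA, fewer cells of a type and less RNA per cell cannot be told apart either.

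Foxo1 is a forkhead transcription factor that binds DNA when growth factor and antigen receptor signals are weak, and in mouse T cells it maintains genes of the naive state such as the IL-7 receptor. CD4 and CD8 T cells separate in the thymus, where ThPOK directs the helper fate and Runx3 the cytotoxic fate. CD8 T cells are known for the T-box factors T-bet and Eomes and for cytotoxic granule genes, and CD4 T cells for costimulatory and helper genes.

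Values are intensities in arbitrary units for 45037 probe sets, or log2 differences of CD8 minus CD4. Intensities below 74.9, the median over all 4 arrays, were treated as unmeasured and set to that floor, so a gene below it in 1 array of a pair is given as "at least". The array medians were 75.7 (deficient CD4), 69.0 (deficient CD8), 77.6 (wild-type CD4) and 77.1 (wild-type CD8). The deficient CD8 array thus lay 0.13 log2 units below the deficient CD4 array at the median, and each log2 difference would be about that much higher with the arrays centred. Only 660 probe sets (507 genes) have a symbol, which comes from the authors' lists of probe sets that differed at least 2-fold between genotypes in 1 or both cell types. Every named gene therefore had been selected for a genotype difference, and its direction between cell types is a description. Each gene is represented by its named probe set with the highest mean intensity. Between probe sets of the same gene the CD8 minus CD4 difference had a pooled SD of 0.38 log2 units (81 genes). This is the only measure of spread here, and it holds no spread between arrays or preparations.

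The largest named differences on the CD8 side were in Plac8, Nkg7 and Cd160, and their upstream sequences are shown with those of Gzma and, from the CD4 side, Trat1. Each is the 250 bases before a transcription start in RefSeq (GRCm38.p6), 5′ to 3′ on the strand of the gene. Capitals mark matches on either strand to the T-box core GGTGTGA and the RUNX core TGTGGTT, and the matches printed do not overlap. Every sequence shown holds a match, which most windows counted below do not, so they do not stand for the genes on either side. Plac8 and Cd160 have 2 annotated starts each, of which 1 is shown.
Plac8 (chr5:100572206-100572455, minus strand): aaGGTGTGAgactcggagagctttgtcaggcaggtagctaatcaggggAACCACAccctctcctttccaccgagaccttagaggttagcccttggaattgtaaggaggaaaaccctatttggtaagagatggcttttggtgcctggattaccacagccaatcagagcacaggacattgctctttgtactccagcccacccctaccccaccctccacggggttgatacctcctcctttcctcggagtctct
Nkg7 (chr7:43436888-43437137, plus strand): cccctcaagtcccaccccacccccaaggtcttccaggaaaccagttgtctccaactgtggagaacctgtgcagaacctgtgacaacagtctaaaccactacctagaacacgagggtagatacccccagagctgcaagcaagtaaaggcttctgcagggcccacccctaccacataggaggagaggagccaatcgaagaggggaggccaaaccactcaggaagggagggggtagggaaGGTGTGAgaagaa
Cd160 (chr3:96814522-96814771, minus strand): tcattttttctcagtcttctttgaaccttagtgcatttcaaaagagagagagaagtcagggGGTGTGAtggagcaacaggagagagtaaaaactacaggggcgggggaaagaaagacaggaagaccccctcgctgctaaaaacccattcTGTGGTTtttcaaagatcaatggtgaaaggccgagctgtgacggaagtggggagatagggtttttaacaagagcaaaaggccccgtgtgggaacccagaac
Gzma (chr13:113100982-113101231, minus strand): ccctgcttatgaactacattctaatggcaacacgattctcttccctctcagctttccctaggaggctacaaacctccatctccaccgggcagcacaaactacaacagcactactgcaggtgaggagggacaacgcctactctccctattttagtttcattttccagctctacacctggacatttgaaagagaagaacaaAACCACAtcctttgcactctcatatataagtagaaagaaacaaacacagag
Trat1 (chr16:48772063-48772312, minus strand): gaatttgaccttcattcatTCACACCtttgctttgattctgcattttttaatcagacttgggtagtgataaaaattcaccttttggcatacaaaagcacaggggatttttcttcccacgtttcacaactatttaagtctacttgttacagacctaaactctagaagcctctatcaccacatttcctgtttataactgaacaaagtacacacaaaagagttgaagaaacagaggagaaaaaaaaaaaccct

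In Nkg7 the T-box match starts 13 bases before the start site. In Plac8 the T-box match starts 248 and the RUNX match 202 bases before it, and in Cd160 they start 189 and 101 bases before it. The RUNX match in Gzma starts 51 bases, and the T-box match in Trat1 231 bases, before the start. Among the 25 named genes with the largest differences toward CD8, 15 measured and 10 bounds, 19 had a RefSeq window, 23 windows in all. T-box cores were found in 3 of these windows (of Plac8, Nkg7 and Cd160) and RUNX cores in 4 (of Plac8, Cd160 and Gzma). Among the corresponding 25 genes on the CD4 side, 22 had a window, 32 windows in all, and 3 held a T-box core (Trat1, Cyp2s1 and Zfp148) and 0 a RUNX core. Of all 32851 windows of this length, 3.33% held a T-box and 4.40% a RUNX core. The forkhead core GTAAACA, searched on both strands, was in 0 windows on either side, against 3.17% of all windows. The T-box and RUNX cores were chosen after the values were seen, and a match is a description of these letters, not a binding site.

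Foxo1 itself was not equally low in the deficient pair. Its brightest probe set had an intensity of 1107 in deficient CD4 and 1836 in deficient CD8 T cells, against 8204 and 6902 in the wild-type cells. The other probe sets above the floor had 319 and 215 in deficient CD4 and 934 and 645 in deficient CD8. In all 3 the deficient CD8 array was the higher, by log2 differences of 0.73, 1.55 and 1.59, while the wild-type differences were -0.25, -0.33 and -0.07. Neither deficient array reached the floor with the fourth (61.3 and 45.1). More Foxo1 signal was left in the deficient CD8 than in the deficient CD4 sample, and the part of this in the differences below was not tested.

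At least 1 deficient array was above the floor for 23637 probe sets, of which 455 (1.92%) were at least 2-fold higher in CD8 and 696 (2.94%) at least 2-fold higher in CD4, together 4.87%. The balance depended on scaling. With the arrays centred on their medians 622 were higher in CD8 and 508 in CD4, and after quantile normalization 540 and 542. The share of called probe sets that were higher in CD8 was 39.5% as deposited, 55.0% when centred and 49.9% after quantile normalization. Large differences were fewer, with 98 probe sets at least 4-fold higher in CD8 and 82 in CD4, and 33 and 16 at least 8-fold. Symbols were held by 21 of the 50 most extreme probe sets toward CD8 and 26 of the 50 toward CD4. Cd4, Cd8a and Cd8b1, the defining genes of the lineages, carry no symbol in the authors' lists, so the labels could not be checked on them. Of 18 named genes on the CD8 and cytotoxic lineage list, 15 were at least 2-fold higher in the array labelled CD8, as given below. That list was chosen with earlier results of these data known, so it is no check of the labels.

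Among the named genes, Plac8, which encodes a cysteine-rich protein of leukocytes, was 64.0-fold higher in deficient CD8 T cells (intensity 180 in CD4 and 11516 in CD8). Nkg7, a cytotoxic granule gene, was 50.8-fold higher (195 and 9920). Both also separated the wild-type arrays, Plac8 at 167 and 6670 and Nkg7 at 64.1 and 9924. Cd160, a receptor of cytotoxic lymphocytes, had 79.5 in deficient CD4 and 2862 in deficient CD8, a 36.0-fold difference. Klrd1, which encodes the CD94 chain of NK receptors, had 95.8 and 2875, a 30.0-fold difference. In wild-type cells Cd160 had 61.4 and 591 and Klrd1 1327 and 12752, so that Klrd1 was lower in both deficient arrays than in its wild-type counterpart and Cd160 was higher in deficient CD8. The 3 probe sets of Cd160 spanned log2 differences of 2.39 to 5.17 without Foxo1.

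**Figure D1:**
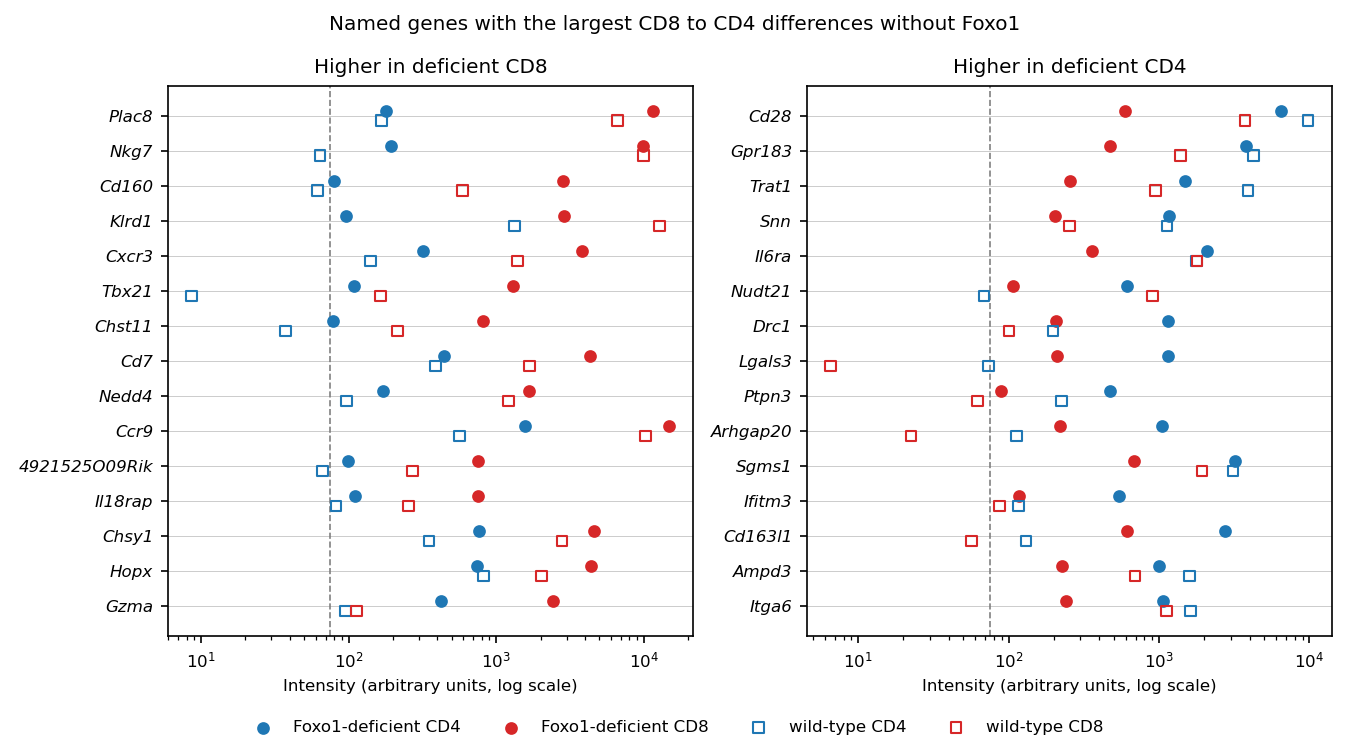
Intensity (arbitrary units, log axis) of the 15 named genes with the largest measured difference toward CD8 (left) and toward CD4 (right) in the Foxo1-deficient pair; filled circles are the deficient arrays, open squares the wild-type arrays, blue CD4 and red CD8, 1 array each, and the dashed line is the floor of 74.9. In most genes on the left the wild-type squares are separated in the same direction, while Gzma has wild-type values of 95.6 and 113, and Il6ra on the right has 1784 and 1792.

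Several transcription factor genes were higher in deficient CD8. Tbx21, which encodes T-bet, had 110 in deficient CD4 and 1295 in deficient CD8 (11.8-fold), and 8.65 and 165 in the wild-type arrays. Eomes, its T-box relative, had 438 and 2183 (4.99-fold), close to its wild-type difference of 4.83-fold (279 and 1350). The log2 difference of Eomes was thus 2.32 without Foxo1 and 2.27 with it, nearer than the spread between probe sets, while that of Tbx21 was 3.56 without Foxo1 and at least 1.14 with it. Hopx, a homeodomain-only cofactor, was 5.94-fold higher (739 and 4387) against 2.45-fold in wild-type, but its 3 probe sets spanned log2 1.39 to 2.57 without Foxo1. Ikzf2, which encodes Helios and is also on the regulatory T cell list, was 3.01-fold higher (1292 and 3896) against 3.36-fold in wild-type.

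Of the granule and effector genes, Gzma, Gzmb and Xcl1 reached 2-fold in the deficient pair and not in wild-type. Gzma, which encodes granzyme A, had 424 in deficient CD4 and 2428 in deficient CD8 (5.72-fold), but 95.6 and 113 in the wild-type arrays (1.19-fold). Gzmb, which encodes granzyme B, had 204 and 1080 (5.31-fold) and was below the floor in both wild-type arrays (11.1 and 45.8). Both granzymes were higher in both deficient arrays than in either wild-type array, and highest in deficient CD8. The chemokine gene Xcl1 had 78.9 and 294 without Foxo1 (3.72-fold) and 11.5 and 57.6, below the floor, with it. Ccl5, a chemokine of effector T cells, had 296 and 1075 (3.63-fold), and 27.3 and 176 in wild-type. Cst7, which encodes the protease inhibitor cystatin F, had a difference of similar size in both pairs, 5.05-fold (837 and 4224) and 5.72-fold (270 and 1544).

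Of the 38 genes on the list of CD8 and cytotoxic lineage genes, 18 were named and compared. Without Foxo1, 15 were at least 2-fold higher in CD8, 0 at least 2-fold higher in CD4 and 3 were called neither way. The median log2 difference of the 18 was 2.37. Over all 472 named genes compared, 18.2% were at least 2-fold higher in CD8, 22.5% at least 2-fold higher in CD4, and the median was -0.05. The wild-type median of the list was 1.68, over 14 genes above the floor in a wild-type array, of which 9 were at least 2-fold higher in CD8. Among its further members, Cd7, an immunoglobulin superfamily receptor of T cells, was 9.82-fold higher (440 and 4325) and 4.34-fold in wild-type (389 and 1689). St3gal6, a sialyltransferase gene, was 3.47-fold higher (239 and 827) against 1.37-fold in wild-type (637 and 873). Ly6c1, a memory-associated surface antigen gene, was 2.78-fold higher (6322 and 17553) against 1.30-fold (7345 and 9513). The members called neither way were Klrc1, at least 1.89-fold higher in CD8, Dapl1 (log2 -0.14) and Tnfrsf9 (log2 -0.33). With the intensities of the authors' tables Tnfrsf9 was at log2 0.10.

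Receptors for chemokines and cytokines included genes higher in either lineage. Cxcr3, a receptor of effector T cells, had 319 in deficient CD4 and 3823 in deficient CD8 (12.0-fold), and 141 and 1395 in wild-type (9.91-fold). Ccr9, a receptor for homing to thymus and gut, had 1568 and 14853 (9.47-fold), and 567 and 10314 (18.2-fold). Cxcr6 was at least 11.9-fold higher in deficient CD8 (55.3 and 891) and at least 45.6-fold in wild-type (43.8 and 3416). Cxcr3 was higher and Cxcr6 lower in deficient CD8 than in wild-type CD8. Il18rap, a subunit of the IL-18 receptor, was 6.77-fold higher in deficient CD8 (111 and 753) and 3.08-fold in wild-type. Gpr183, a receptor for oxysterols that guides lymphocytes in lymphoid tissue, lay on the CD4 side, with 3787 in deficient CD4 and 476 in deficient CD8 (7.96-fold), and 4251 and 1385 in wild-type (3.07-fold). Of the 24 receptors on this list 9 were compared, with 3 at least 2-fold higher in CD8 and 2 in CD4, the latter near the 22.5% of all named genes. The wild-type counts were 3 and 1.

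On the CD4 side, Pdlim4, which encodes a PDZ and LIM domain protein of the actin cytoskeleton, was at least 50.8-fold higher in deficient CD4 T cells (3801 and 55.2), and 13.8-fold in wild-type (2760 and 200). The sialyltransferase gene St8sia6 was at least 16.5-fold higher (1238 and 44.1), and 41.9-fold in wild-type (9178 and 219). Ddr1, a collagen receptor kinase gene, was at least 10.2-fold higher (763 and 54.5), and 3.50-fold in wild-type (1921 and 548). For all 3 the deficient CD8 array was below the floor, so these are lower bounds for the deposited value table. Their other named probe sets, where there were any, were on the same side, St8sia6 spanning log2 -4.05 to -1.62. The authors' deposited tables give a log2 difference between the deficient samples of -3.47 for St8sia6 and -2.32 for Ddr1 against -4.05 and -3.35 here, smaller than these bounds, so the bounds do not hold with those intensities.

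Cd28, through which naive T cells receive costimulation, had 6519 in deficient CD4 and 595 in deficient CD8, a 10.95-fold difference, against 9810 and 3740 (2.62-fold) in wild-type. Trat1, an adaptor that stabilises the T cell receptor complex, had 1495 and 255 (5.87-fold), and 3901 and 949 (4.11-fold). Both were on the CD4 side in both genotypes, and for Cd28 the difference was the larger in the deficient pair. Tnfrsf4, which encodes the costimulatory receptor OX40, had 995 and 293 (3.39-fold), and 591 and 283 (2.09-fold). The inhibitory receptor gene Pdcd1 had 403 and 151 (2.67-fold), and 181 and 80.6 (2.24-fold). Icos, an inducible costimulator, differed by 1.65-fold (738 and 448), and by 1.20-fold toward CD8 in wild-type (923 and 1106). Of 7 costimulatory and inhibitory receptor genes compared, 3 were on the CD4 side by at least 2-fold and 1, Cd160, on the CD8 side, with a median of -0.72, where all named genes gave 22.5% and 18.2%. The wild-type counts of this list were the same, 3 and 1, with a median of 0.02.

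The 23-gene list of CD4 and helper lineage genes had 10 members named. Without Foxo1, 3 were at least 2-fold higher in CD4 (Cd28, Trat1 and Tnfrsf4), 1 in CD8 and 6 were under 2-fold, with a median of -0.58. With 10 genes these counts are near the shares over all named genes, 22.5% toward CD4 and 18.2% toward CD8. In wild-type the counts toward CD4 and CD8 were 5 and 0, with a median of -0.78. The member on the CD8 side was Ahr, the aryl hydrocarbon receptor, with 265 in deficient CD4 and 749 in deficient CD8 (2.82-fold), and 144 and 128 in wild-type. Maf, a transcription factor of helper cells, had 195 and 205 without Foxo1 and 229 and 36.0 with it. Its wild-type difference of at least 3.05-fold toward CD4 had no counterpart of 2-fold in the deficient pair. Ifngr2, a chain of the interferon gamma receptor, likewise had 364 and 413 without Foxo1 and 320 and 145 with it.

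**Figure D2:**
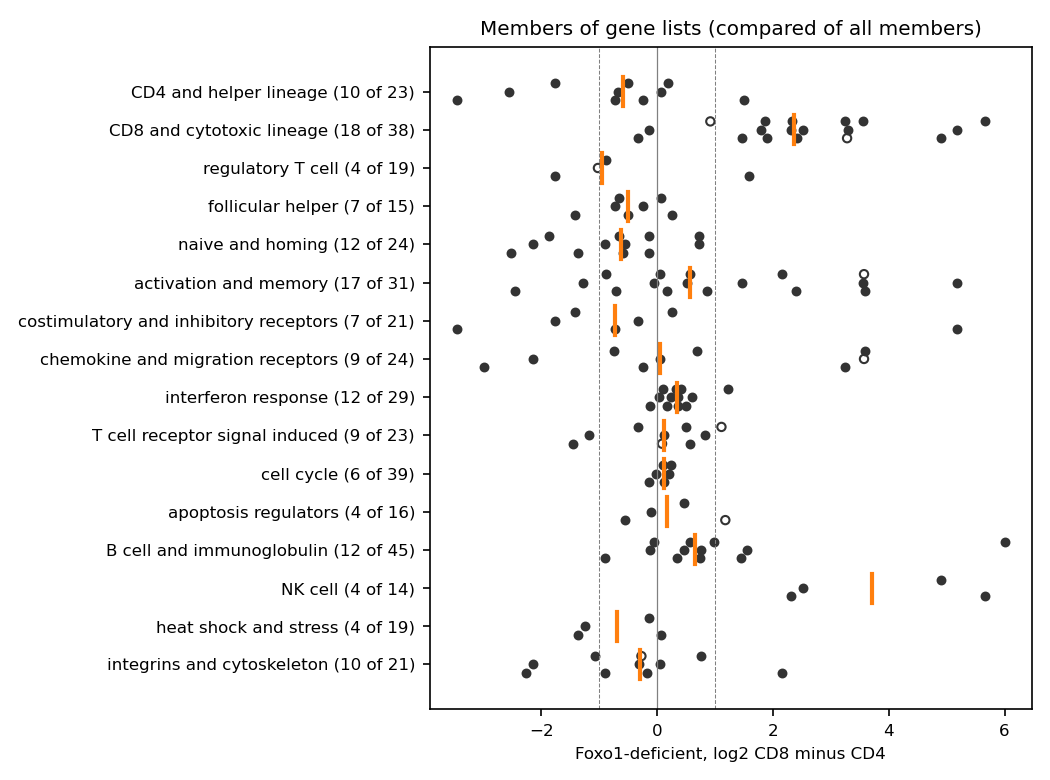
Log2 CD8 minus CD4 difference in the Foxo1-deficient pair for the named members of each gene list with at least 4 compared; each point is a gene, open points are bounds, orange bars are list medians and dashed lines mark 2-fold. The CD8 and cytotoxic list (median 2.37) and the NK cell list (median 3.71, the same kind of genes) lie to the right, and the cell cycle list lies within 2-fold.

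Of 12 naive and homing genes compared, 4 were at least 2-fold higher in deficient CD4 (Il6ra, Itga6, Igfbp4 and Ddit4), 0 in deficient CD8 and 8 were under 2-fold, with a median of -0.62. Over all named genes the shares were 22.5% toward CD4 and 18.2% toward CD8, with a median of -0.05. Il6ra, the IL-6 receptor alpha chain, had 2072 in deficient CD4 and 362 in deficient CD8 (5.73-fold), but 1784 and 1792 in the wild-type arrays. Itga6, the integrin alpha 6 chain, had 1066 and 242 (4.40-fold), and 1616 and 1125 in wild-type (1.44-fold). Igfbp4, which binds insulin-like growth factors, had 12696 and 3487 (3.64-fold), and 10804 and 8919 in wild-type (1.21-fold). In these 3 genes the deficient CD8 array stood below the other 3 arrays. Il7r differed less between the deficient samples, with 4148 in CD4 and 2755 in CD8 (1.51-fold), both far below the wild-type values of 15808 and 15760. Dapl1 was close to equal in the deficient arrays (767 and 696), and so was the stress gene Sesn1 (3920 and 3561). Klf3, a Krüppel-like factor gene, leaned the other way (366 and 607, log2 0.73), as did Foxo1. Il6st, the signalling chain of the IL-6 receptor, was under 2-fold (2594 and 1654), and so was its target Socs3 (log2 -0.55). In wild-type the counts of this list toward CD4 and CD8 were 0 and 2, with a median of -0.13.

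Genes of activation and memory were divided. Of 17 compared, 7 were at least 2-fold higher in deficient CD8 (Cd160, Cxcr3, Cxcr6, Tbx21, Cd38, Ahnak and Ly6c1) and 2 in deficient CD4 (Lgals3 and Cd44), with a median of 0.57, where all named genes gave 18.2% and 22.5%. In wild-type 5 and 2 of 14 were, with a median of 0.62. Cd38, an ectoenzyme of activated lymphocytes, had 175 in deficient CD4 and 921 in deficient CD8 (5.27-fold), and 114 and 157 in wild-type (1.38-fold). Ahnak, a large scaffold protein gene, had 629 and 2819 (4.48-fold), and 203 and 1652 (8.16-fold). Cd38 was thus high in deficient CD8 alone, while Ahnak separated both pairs. Lgals3, which encodes galectin-3, had 1147 and 210 (5.46-fold higher in CD4) and was below the floor in wild-type (73.5 and 6.58). Cd44, an adhesion receptor of memory T cells, was 2.42-fold higher in deficient CD4 (785 and 324) and 6.28-fold in wild-type CD4 (1008 and 161). Itga4, the integrin alpha 4 chain, was close to equal in the deficient arrays (876 and 912) and low against wild-type (4094 and 4971). Lgals1 (9688 and 10896) and Ly6a (14905 and 14386) did not reach 2-fold in the deficient pair, though Ly6a was 2.47-fold higher in wild-type CD4 than in wild-type CD8.

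The lists that follow are to be read beside the shares over all named genes, 18.2% toward CD8 and 22.5% toward CD4. All 6 named members of the 39-gene cell cycle list were under 2-fold, from log2 -0.13 for Melk to 0.24 for Nusap1. Outside that list, the cell cycle gene Clspn was 3.97-fold higher in deficient CD8 (106 and 421) and 2.94-fold in wild-type. Cdca5 (log2 0.71) and E2f2 (log2 -0.82), also outside it, were under 2-fold. Of 12 interferon response genes 11 were under 2-fold. The exception was Gbp3, a guanylate-binding protein gene (1137 and 2663, 2.34-fold), whose wild-type difference was 2.16-fold. This count holds for the listed genes only. Ifitm3, an interferon-induced gene not on the list, was 4.63-fold higher in deficient CD4 (542 and 117). In wild-type it was 1.34-fold higher in CD4 (117 and 87.1). Cxcl10, not on the list either, was 4.35-fold higher in deficient CD8 (80.1 and 349). Of 7 follicular helper genes 6 were under 2-fold, including Bcl6 (1828 and 1298) and Cxcr5 (324 and 272), and Pdcd1 was the exception. Of 9 genes induced by T cell receptor signals, Nr4a1 (2245 and 990, 2.27-fold) and Nr4a3 (1191 and 437, 2.73-fold) were higher in deficient CD4. Jun was at least 2.16-fold higher in deficient CD8 (73.6 and 162), and 6 were called neither way, the difference of Nr4a2 being a bound. Of 4 apoptosis regulators, Pmaip1, which encodes the BH3-only protein Noxa, was at least 2.26-fold higher in CD8 (40.2 and 169), and Bcl2l11, which encodes Bim, had 252 and 233, with no stable direction across scalings. Bcl2l11 was 3.57-fold higher in wild-type CD8 than in wild-type CD4 (81.9 and 293).

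Smaller lists gave a mixed picture. Slamf7, of the SLAM receptors, had 106 in deficient CD4 and 413 in deficient CD8 (3.90-fold), and 118 and 123 in wild-type, while Slamf6 (log2 0.27) and the adaptor gene Sh2d1a (log2 -0.66) were under 2-fold. Of 3 phosphodiesterases compared, Pde7a was 3.48-fold higher in CD8 (601 and 2091, with 6 probe sets at log2 1.16 to 1.80). Pde2a, 2.44-fold higher in wild-type CD8, differed by 1.14-fold in the deficient pair. Of 10 integrin and cytoskeleton genes, 3 were at least 2-fold higher in deficient CD4 (Arhgap20, Itga6 and Tubb2b) and 1, Ahnak, in deficient CD8. Tubb2b (log2 -1.08) was under 2-fold with the arrays centred (-0.95) or quantile normalized (-0.89). Arhgap20 had 1056 and 220 in the deficient arrays (4.80-fold). Of 4 heat shock and stress genes, Hspa1b (1962 and 824, 2.38-fold) and Ddit4 were at least 2-fold higher in deficient CD4, though Hspa1b was at log2 -0.91 when its probe sets were averaged.

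Markers of other cells were followed as far as they had symbols. The 7 named immunoglobulin genes summed to an intensity of 6077 in deficient CD4 and 9967 in deficient CD8, against 784 and 1105 in wild-type. Of these, Ighm (107 and 314, 2.93-fold) and Ighg (98.5 and 199, 2.02-fold) were at least 2-fold higher in deficient CD8. Of the 45-gene B cell and immunoglobulin list, 12 were compared, 3 of them at least 2-fold higher in deficient CD8 (Plac8, Ighm and Cd72) and 0 in CD4, and its median was 0.65, with Ighg outside that list. Plac8 and Cd72 (941 and 2564, 2.73-fold) separated the wild-type arrays too. The B cell markers Cd79a, Cd79b and Ms4a1 and the NK cell marker Ncr1 have no symbol here, and the 4 NK list genes that do (Nkg7, Klrd1, Gzma and Eomes) are all on the cytotoxic list. Trgv1, a variable gene of the gamma chain of the T cell receptor, differed by at least 9.71-fold, higher in deficient CD8 (29.5 and 728) and below the floor in wild-type (8.97 and 31.9). Cd163l1, of the scavenger receptors, had 2746 in deficient CD4 and 610 in deficient CD8 (4.50-fold). Its 2 probe sets spanned log2 -2.17 to -1.56 without Foxo1. In wild-type Cd163l1 had 130 and 56.5, at least 1.74-fold toward CD4. Foxp3, which specifies regulatory T cells, had 152 in deficient CD4 and 51.0 in deficient CD8, at least 2.03-fold apart, and was just under 2-fold (log2 -0.97) after quantile normalization. Of 4 regulatory T cell genes compared, Foxp3 and Tnfrsf4 were on the CD4 side by at least 2-fold, Ikzf2 was on the CD8 side, and Swap70 (log2 -0.88) was under 2-fold. The NK list summed to 1153 in deficient CD4 and 17405 in deficient CD8 (1766 and 24139 in wild-type), and the B cell list to 11878 and 28425 (4969 and 13739). In both genotypes most of the difference in the B cell sums lay in Plac8, whose intensities are given above. The 3 of 27 myeloid genes named summed to 536 and 399 (576 and 202 in wild-type), and of these Lyz1 (342 and 228) and Lyz2 (165 and 138) were under 2-fold. The part of any other cell type in the differences was not tested.

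To see which lineage differences also existed with Foxo1, the deficient pair was set beside the wild-type pair, which shares no array with it. In the wild-type pair 537 of 24371 probe sets (2.2%) were at least 2-fold higher in CD8 and 562 (2.31%) in CD4, together 4.51%. Among 22633 probe sets compared in both pairs, 228 were at least 2-fold higher in CD8 in both and 218 in CD4 in both. These 446 made up 40.1% of the 1111 called in the deficient pair and 41.8% of the 1066 called in wild-type. By direction, they were 52.7% of the deficient and 43.7% of the wild-type calls toward CD8, and 32.2% and 40.1% of those toward CD4. As a description across these probe sets, which are no replicates of each other, the differences of the pairs had a Pearson correlation of 0.56 and a Spearman correlation of 0.42. It is not stated whether the CD4 and CD8 samples of one genotype share animals.

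**Figure D3:**
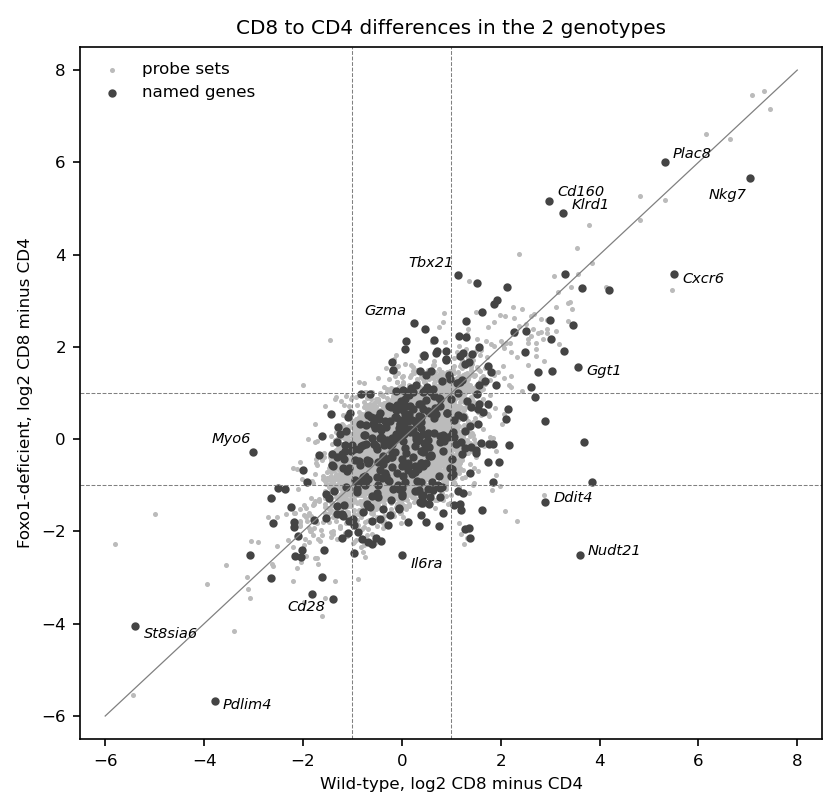
Log2 CD8 minus CD4 difference in the Foxo1-deficient pair (vertical) against the wild-type pair (horizontal) for 22633 probe sets (grey) and the named genes compared in both (black); dashed lines mark 2-fold and the solid line equality. Plac8, Nkg7 and St8sia6 lie far out in the same direction in both pairs, Gzma and Il6ra differ only along the vertical axis, and Nudt21 and Ddit4 lie in the lower right, opposite in the pairs.

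The size of the wild-type difference went with its presence in the deficient pair. Of 425 probe sets 2-fold to 4-fold higher in wild-type CD8, 34.1% were at least 2-fold higher in deficient CD8. This was 80.7% of the 57 that differed 4-fold to 8-fold, and 92.5% of the 40 that differed by 8-fold or more. Toward CD4 the shares were 34.9% of 493, 89.2% of 37 and 92.9% of 14. The most strongly lineage-separated probe sets were thus mostly separated without Foxo1 too. Medians in the highest class were 3.62 in wild-type and 3.30 in deficient toward CD8, and -3.47 and -3.06 toward CD4. In the lowest class they were 1.23 and 0.62 toward CD8, and -1.21 and -0.74 toward CD4. The same 2-fold limit was used in every class, so a larger wild-type difference could shrink more and still be counted. Part of the rise in the shares is therefore built in. Besides the genes above, Nedd4, a ubiquitin ligase gene, had 170 in deficient CD4 and 1659 in deficient CD8 (9.75-fold), and 96.7 and 1210 in wild-type (12.5-fold). Chsy1, a chondroitin synthase gene, was 6.02-fold higher in deficient CD8 and 7.93-fold in wild-type. Ddc, which encodes an amino acid decarboxylase, was 5.53-fold and 11.01-fold higher. On the CD4 side Klhl5 (770 and 179, 4.31-fold and 4.28-fold), Snn (1174 and 204, 5.74-fold and 4.45-fold) and Igsf23 (1082 and 287, 3.77-fold and 4.51-fold) were alike in both pairs. Tmem154 was at least 8.02-fold higher in deficient CD4 and 6.29-fold in wild-type, and Epas1, a hypoxia-inducible factor gene, at least 5.67-fold and 8.37-fold. The authors' tables give Epas1 a deficient log2 difference of -2.37, smaller than the bound of -2.50 here.

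**Figure D4:**
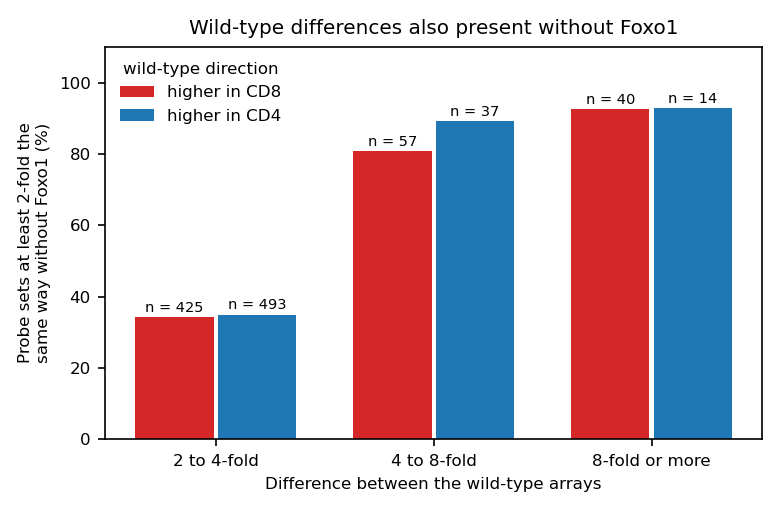
Share of probe sets (percent) that were at least 2-fold the same way in the Foxo1-deficient pair, by the size of their wild-type CD8 to CD4 difference; red bars are probe sets higher in wild-type CD8, blue bars in wild-type CD4, with their number above. The share is 34.1% and 34.9% in the lowest class and 92.5% and 92.9% in the highest.

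A further 641 probe sets reached 2-fold in the deficient pair and not in wild-type, 203 toward CD8 and 438 toward CD4. This imbalance depended on scaling, with 320 and 282 when the arrays were centred and 248 and 309 after quantile normalization. A wild-type bound under 2-fold was counted as not reaching 2-fold. Among the 203, the genotype difference was larger in CD8 in 120, with the deficient CD8 array higher, and larger in CD4 in 83, with the deficient CD4 array lower. Among the 438, it was larger in CD8 in 236, with the deficient CD8 array lower, and larger in CD4 in 202, with the deficient CD4 array higher. The larger genotype difference was thus in CD8 for some and in CD4 for others. The direction in each array follows from how these classes were defined, so only the split between the cell types is an observation. The medians of the 438 were -1.18 without Foxo1 and -0.37 with it, and those of the 203 were 1.17 and 0.51, on the same side of 0 in both pairs. Named examples with a wide gap between the pairs toward CD8 were Gzma, Cxcl10, Cd38, Slamf7 and Plek. Tbx21, Cd160 and Chst11 had a wide gap too, but they also reached 2-fold toward CD8 in wild-type. Their wild-type log2 differences, at least 1.14, 2.98 and 1.51, are bounds, so their gaps depend on the floor. Cxcl10, an interferon-induced chemokine gene outside the interferon list, had 80.1 in deficient CD4 and 349 in deficient CD8 (4.35-fold), and 93.3 and 99.3 in wild-type. Chst11, a chondroitin sulfotransferase gene, had 78.3 and 821 (10.5-fold), and 37.4 and 214 in wild-type (at least 2.86-fold). Plek, which encodes pleckstrin, was at least 3.20-fold higher in deficient CD8 (72.1 and 240).

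Another 596 probe sets reached 2-fold in wild-type and not in the deficient pair, 272 toward CD8 and 324 toward CD4. A deficient bound under 2-fold was likewise counted as not reaching 2-fold. Among the 272, the larger genotype difference was a lower deficient CD8 array in 152 and a higher deficient CD4 array in 120. Among the 324, it was a higher deficient CD8 array in 165 and a lower deficient CD4 array in 159. These directions, too, follow from how the classes were defined. Myo6, a myosin motor gene, had 614 and 76.1 in wild-type (8.07-fold toward CD4), and 90.4 and 64.5 in the deficient pair (at least 1.21-fold). Slc6a19, an amino acid transporter gene, had 101 and 1306 in wild-type CD4 and CD8 (12.9-fold), and 78.0 and 53.7 in the deficient arrays. Cryl1, a crystallin-related enzyme gene, had 73.5 and 1081 in wild-type, and 143 and 38.8 in the deficient pair. The deficient difference of Cryl1 was at least 1.91-fold toward CD4, so it may reach 2-fold the other way. Against wild-type, the deficient value was far lower in CD4 for Myo6 and in CD8 for Slc6a19 and Cryl1, and both deficient values of Myo6 and Slc6a19 were near or below the floor. Frmd4b differed by 2.63-fold toward CD8 in wild-type (245 and 642) and by 1.12-fold in the deficient pair, where both values were high (1751 and 1559). H2-DMa, which acts in class II peptide loading, had 556 and 1279 in wild-type, and 3251 and 3121 in the deficient pair.

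At the floor and threshold used, 24 probe sets were at least 2-fold in opposite directions. This count depended on both settings. It was 396 with the floor at the 25th percentile, 2 at the 75th percentile, 2094 without a floor and 197 at 1.5-fold. Of the 24, 22 were higher in wild-type CD8 and in deficient CD4. By gene there were 11 such named genes and all had that arrangement. Nudt21, which encodes an mRNA cleavage factor subunit, had 609 in deficient CD4 and 107 in deficient CD8 (5.67-fold), and 68.7 and 906 in wild-type (at least 12.1-fold the other way). Ddit4, which restrains mTOR under stress, had 6595 and 2555 (2.58-fold), and 541 and 4040 (7.47-fold the other way). Ghitm, a mitochondrial membrane protein gene, had 829 and 188, and 284 and 743. In these genes deficient CD4 and wild-type CD8 were the high arrays and deficient CD8 and wild-type CD4 the low ones.

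**Figure D5:**
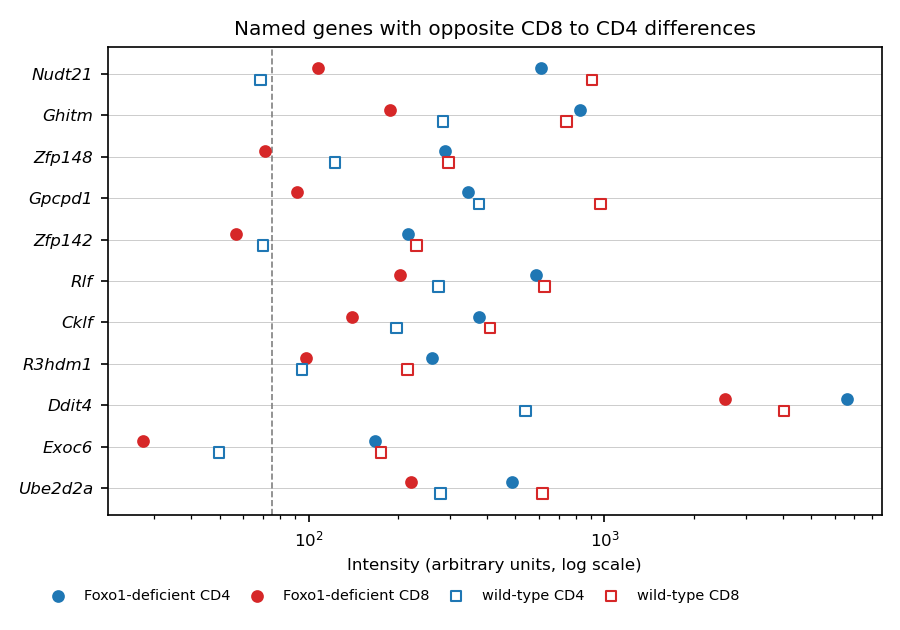
Intensity (arbitrary units, log axis) of the 11 named genes with CD8 to CD4 differences of at least 2-fold in opposite directions in the Foxo1-deficient pair (filled circles) and the wild-type pair (open squares); blue is CD4, red is CD8, 1 array each, and the dashed line is the floor of 74.9. In each gene the deficient CD4 and wild-type CD8 values lie to the right of the deficient CD8 and wild-type CD4 values, except Gpcpd1, where wild-type CD4 (377) lies to the right of deficient CD4 (344).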

How the data were processed

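RNA of 4 mouse T cell samples was labelled and hybridised to Affymetrix arrays, from 0.5 ug of total RNA, per the labels' protocols. The deposited values are linear intensities, 1 for each probe set on each array. How the authors summarised and scaled them is not given in the sources here. The number of arrays limits the precision. The authors also deposited, for each cell type, a table with a symbol, a ratio and 2 raw intensities per probe set, named in the file headers, which stand 1 field off their columns. The ratio is deficient over wild-type, since dividing those intensities gave it for 891 of 891 entries (relative tolerance 1e-06).

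Of 45101 probe sets, 64 controls were left out. Symbols came only from the authors' tables, where 660 of 694 probe sets had one (563 current in RefSeq GRCm38.p6, 56 updated, 41 kept as given). Log2 differences of CD8 minus CD4 were taken on the deposited intensities without further scaling, with the floor and the 2-fold threshold described above. No test was run. Among 9 hybridisation spike-ins the median log2 difference of deficient CD8 minus deficient CD4 was -0.05, and the 5 prime minus 3 prime signal differed by 0.14 for actin and -0.21 for Gapdh. Members and gene lists were chosen with earlier results of these data known. Genes named by rule are the 15 largest measured differences and the 10 largest bounds each way, the 10 each way with the widest gap between genotypes, the 10 each way at least 2-fold in both, and up to 6 per list, though not every one is given; other genes were chosen after their values were seen. Counting was tested on simulated data. Python 3.11.15, numpy 2.4.6, pandas 2.3.3 and matplotlib 3.10.9 were used. Alternatives were other floors, centring, quantile normalization, other fold thresholds, averaged probe sets per gene, omission of shared probe sets, and the intensities of the authors' tables.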

Additional observations from a re-analysis of the deposited data

Results flagged for a closer look

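The CD8 minus CD4 difference was at least 2-fold in opposite directions in the deficient and the wild-type pair for 11 named genes, a difference between the genotypes that was not tested. The log2 differences without Foxo1 were -2.50 for Nudt21, -2.14 for Ghitm, -1.95 for Zfp148, -1.92 for Gpcpd1, -1.54 for Zfp142, -1.54 for Rlf, -1.43 for Cklf, -1.41 for R3hdm1, -1.37 for Ddit4, -1.16 for Exoc6 and -1.13 for Ube2d2a. In wild-type they were 3.60, 1.39, 1.27, 1.36, 1.63, 1.19, 1.05, 1.18, 2.90, 1.23 and 1.14 in the same order. The deficient values of Zfp148, Zfp142 and Exoc6 and the wild-type values of Nudt21, Zfp142 and Exoc6 are bounds. With the intensities of the authors' tables the deficient difference of Zfp142 was log2 -1.13, smaller than its bound. In all 11 the deficient CD8 array was below wild-type CD8, and in 10 the deficient CD4 array was above wild-type CD4, Gpcpd1 being the exception. The authors listed 5 of the 11 in both cell types, and 10 of them have a single named probe set. Since each named gene had been chosen for a genotype difference, their number is not evidence of how common the pattern is. Among all probe sets it was 22 of 22633 at the floor and threshold used.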

How the results depend on the processing

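Counts of probe sets depended on the floor and on the fold threshold. The counts at least 2-fold higher in CD8, at least 2-fold higher in CD4, alike in both genotypes, without Foxo1 only and in wild-type only were 455, 696, 446, 641 and 596 as reported. With the floor at the 25th percentile they were 1772, 2738, 1047, 2744 and 2969, at the 75th percentile 156, 154, 147, 143 and 108, and without a floor 4704, 6038, 2887, 5761 and 5719. At 1.5-fold they were 1428, 2522, 1454, 2154 and 2289, and at 3-fold 159, 181, 157, 171 and 107. The named genes at least 2-fold either way numbered 192 as reported and 82 with the floor at the 75th percentile. Centring, quantile normalization and leaving out probe sets shared between transcripts kept these counts within 1.5 times. Of the differences named by rule that were called, 0 changed sign under any of these alternatives or with averaged probe sets per gene. Their size was less stable: 22 of 123 genes moved by more than the spread between probe sets with the 25th percentile floor, as did 22 of 123 without a floor, 35 of 79 with the 75th percentile floor, 9 of 123 with averaged probe sets and 11 of 38 with the authors' tables. With the intensities of the authors' tables, 47 of 47 called genes in both tables had the same sign and 41 stayed at least 2-fold. No paired analysis was possible because each group holds 1 array and no result comes from a test. Values near the floor are limited by signal over background.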

Other observations

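Among probe sets without a symbol, the largest differences were larger than those of the named genes toward CD8. The probe set 1444078_at had an intensity of 37.8 in deficient CD4 and 14033 in deficient CD8 T cells, and 72.6 and 12014 in the wild-type arrays. On the CD4 side, probe set 1419696_at had 3475 and 13.0 without Foxo1, and 3263 and 13.9 with it. Both were below the floor in the low deficient array, and the genes they measure are not named here.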
